A study of Mus musculus with 18 samples.

Results

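The arrays described here are the left ventricles of CaMKII double knockout mice (DKO) 1 day after ischemia/reperfusion (I/R) and of DKO mice after sham surgery, 3 arrays each and 6 of the 18 arrays of the study, chosen by their sample labels. DKO mice are homozygous for floxed Camk2g and Camk2d alleles and carry Cre under the cardiomyocyte-specific α-MHC promoter. Other cell types of these hearts therefore keep both genes. The I/R mice had the left anterior descending artery tied for 60 min and then reperfused, and RNA came from the ischemic area of the left ventricle at day 1. Sham RNA came from left ventricular myocardium. The same operations in mice with the floxed alleles and no Cre, called FFFF here and wild-type in the labels, gave 3 I/R arrays at 1 day and 3 sham arrays. These are used below for comparison. The labels give no time after sham surgery for either genotype. All lines were on a mixed 129/Sv and C57BL/6 background. The labels give no age for these mice and name no animal, so p-values measure the spread between these arrays only. Values are log2 expression levels, and 3 values in a row are replicates 1, 2 and 3.

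CaMKII is a kinase that calcium and calmodulin switch on and that phosphorylates calcium-handling proteins, ion channels and regulators of transcription in heart muscle. Camk2d and Camk2g encode its δ and γ isoforms. When blood returns to an ischemic ventricle, dying muscle cells release signals that draw neutrophils and then monocytes, stressed muscle cells turn on a program that includes natriuretic peptides and cytoskeletal proteins, and fibroblasts start to lay down scar matrix. Within a day this gives a large change in the RNA of the injured wall.

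The targeted genes were read first. Camk2d (Entrez gene 108058, chromosome 3) had 9.71, 7.90 and 8.31 in the DKO I/R arrays, against 9.17, 9.27 and 9.10 in the DKO sham arrays. In FFFF it lay between 9.59 and 9.83 after I/R and between 9.64 and 9.85 after sham surgery. Camk2g (Entrez gene 12325, chromosome 14) had 7.10, 5.99 and 6.21 in the DKO I/R arrays, against 5.46, 5.72 and 5.87 in the DKO sham arrays, and lay between 6.96 and 7.37 in the FFFF arrays of both operations. The DKO I/R array labelled replicate 1 thus stood at the FFFF level in both genes, against its label, while the 5 others stood below every FFFF array. The sources do not place the probes relative to the deletion. For the results below it is said which calls remained when this array was left out.

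Esr1, the gene of estrogen receptor α, divided the arrays further. It had 4.83, 10.06 and 9.72 in the DKO I/R arrays, against 11.91, 11.83 and 11.86 in the DKO sham arrays, and 4.70 to 5.64 in the 6 FFFF arrays. The DKO arrays taken 5 days after I/R had 5.04, 4.80 and 11.40. The array labelled replicate 1 was again at the FFFF level, and so were 2 DKO arrays of day 5. Those 2 had Camk2d at 8.42 and 8.42 and Camk2g at 6.46 and 6.34, below every FFFF array. They also read as male, with the female transcript Xist at 5.20 and 4.69 and the Y gene Ddx3y at 7.48 and 7.30. The sham and 1-day arrays of both genotypes read as female, with Xist at 9.89 to 10.81 and Ddx3y at 3.73 to 3.96. A1cf, which encodes an RNA-binding partner of the APOBEC1 editing enzyme, had 4.05, 4.21 and 3.95 in the DKO I/R arrays, against 6.56, 6.99 and 6.62 in the DKO sham arrays. The 6 FFFF arrays had 3.88 to 4.04, and the DKO arrays of day 5 had 3.81, 4.03 and 5.11. The sham and I/R arrays of the DKO label therefore differ in Esr1 and A1cf. Their part in the differences below was not tested.

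**Figure D1:**
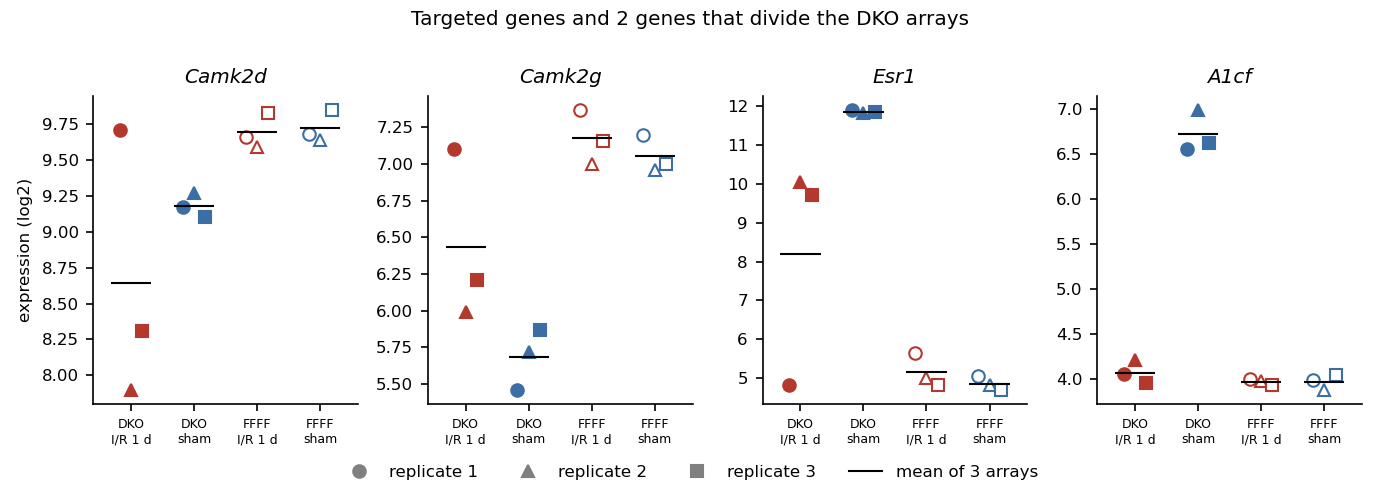
Log2 expression of Camk2d, Camk2g, Esr1 and A1cf in each array of 4 groups (filled, DKO; open, FFFF; red, I/R 1 day; blue, sham; symbols are replicates and lines are means of 3 arrays). The circle of the DKO I/R group lies among the FFFF arrays in the first 3 panels, and the DKO sham arrays stand alone in A1cf.

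The question of the main comparison was which genes changed in DKO hearts within 1 day of I/R. Of 24479 features, each standing for 1 gene, 631 rose (2.58%) and 621 fell (2.54%) in DKO I/R against DKO sham hearts (limma, adjusted p under 0.05). In 1237 of these 1252 genes (5.05% of features) the I/R and sham arrays did not overlap. By at least 1 on the log2 scale, which is a doubling, 198 rose and 173 fell. The call depended on which arrays entered. Without the array labelled replicate 1, 107 rose (0.437%) and 99 fell (0.404%), and 196 of these 206 genes were also among the 1252. Without replicate 2, 1720 rose (7.03%) and 1629 fell (6.65%). Without replicate 3, 220 rose (0.899%) and 247 fell (1.01%), or 1.91% in all. Without sham replicate 1, 2 or 3 the totals were 260, 232 and 683, and the 2 groups fitted alone gave 112. Closer description is given to 93 called genes, mostly chosen for a small p or a large change in this same comparison. Of these 93, 24 kept their call whichever of the 6 arrays was left out, among them Sprr1a, Timp1, Lox, Mt2, Kdr, A1cf and Mir208a. Their share does not stand for all 1252 genes.

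The 3 I/R arrays responded with different strength. Measured against the mean of the 3 sham arrays, 879, 186 and 733 features lay more than 1 above it in replicates 1, 2 and 3, and 967, 227 and 612 lay more than 1 below it. A sham array set against the other 2 had 26 to 40 such features above and 20 to 36 below. Replicate 2 therefore changed less than the other 2 I/R arrays and more than any sham array. To give the strength 1 number, each array's change was regressed through the origin on the I/R change of FFFF hearts over the 2237 genes called in the FFFF arrays alone. The slopes were 1.037, 0.312 and 0.86, where 1 means a response as strong as the measured FFFF mean. Those of the DKO sham arrays lay between -0.042 and 0.062. The genes were picked by that same FFFF change, so a slope somewhat below 1 does not by itself mean a weaker response. Over all features, the changes of replicates 1 and 3 correlated with r = 0.833, and those of replicate 2 with r = 0.487 and 0.466 with the other 2. These correlations are across genes, which are not independent, and the 3 changes share their sham mean. Of the 631 risen genes, replicate 2 had the smallest response in 76.5%, and of the 621 fallen genes in 61.7%.

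**Figure D2:**
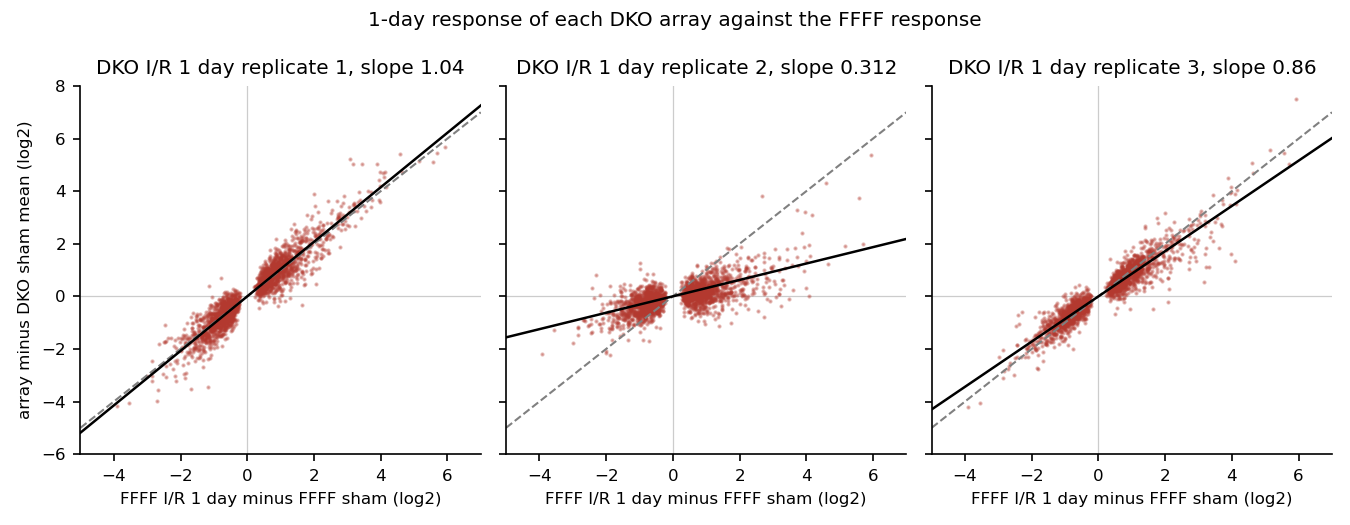
Change of each DKO I/R array from the DKO sham mean (y axis, log2) against the I/R change of FFFF hearts (x axis, log2) for the 2237 genes called in FFFF arrays. Solid lines have slopes 1.037, 0.312 and 0.86 and dashed lines mark equality; replicate 2 lies flattest.

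The gene with the largest rise was Sprr1a (Entrez gene 20753), a small proline-rich protein that heart muscle makes under stress. It had 9.97, 9.69 and 11.82 in the DKO I/R arrays, against 4.41, 4.38 and 4.11 in the DKO sham arrays, a difference of 6.19 (standard error 0.80, adjusted p = 0.0019), or 73.2-fold. Its weakest I/R array was still far above all sham arrays. Lcn2, which encodes an iron-scavenging protein of neutrophils and of injured tissue, had 12.30, 11.21 and 11.95 against 6.72, 6.82 and 7.11 (4.94, adjusted p = 0.0019). Timp1, an inhibitor of matrix metalloproteinases, had 10.60, 9.21 and 10.94 against 5.33, 5.77 and 5.33 (4.77, adjusted p = 1.6e-04). In all 3 genes the I/R arrays lay close together beside the size of the change, and all 3 kept their call without the array labelled replicate 1.

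Among the 12 largest rises were also Aldh1a2, the enzyme that makes retinoic acid, with 9.49, 8.43 and 9.38 in DKO I/R against 5.55, 5.48 and 5.00 in DKO sham arrays (3.76, adjusted p = 7.8e-05), and Prg4, the lubricating proteoglycan, with 11.47, 10.48 and 11.44 against 7.21, 7.07 and 7.57 (3.84, adjusted p = 1.6e-04). Nmrk2, a muscle kinase of the nicotinamide riboside route to NAD, had 11.01, 7.78 and 9.85 against 5.81, 5.94 and 6.20 (3.56, adjusted p = 0.0077). Its replicate 2 stood apart, as it did in Ccl2, below. Cnn1, the smooth muscle protein calponin 1, ran the other way, with 7.93, 8.65 and 9.52 against 4.83, 5.19 and 4.71 (3.79, adjusted p = 0.029), so that the array labelled replicate 1 was its lowest. Without that array Cnn1 was at 4.18 and adjusted p = 0.076, while Aldh1a2, Prg4 and Nmrk2 kept their calls.

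**Figure D3:**
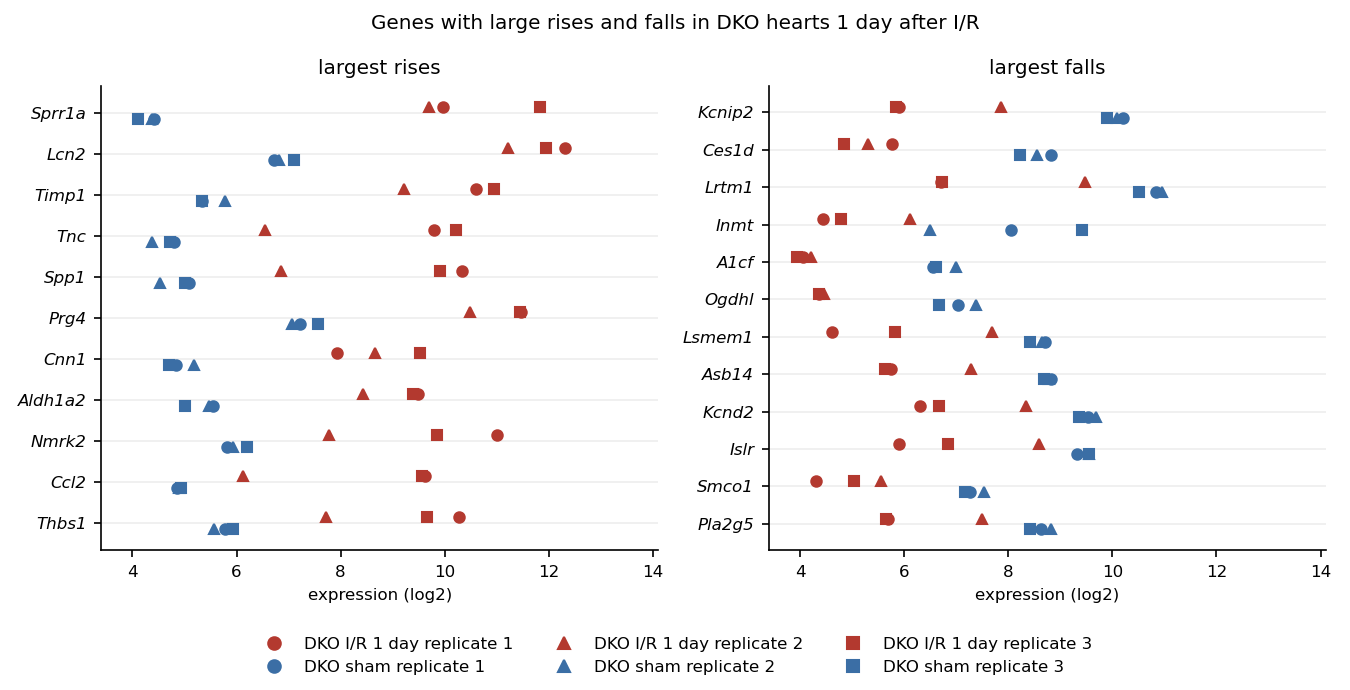
Log2 expression of genes among the 12 largest rises and the 12 largest falls in the 3 DKO I/R arrays (red) and the 3 DKO sham arrays (blue); symbols are replicates. In every row the red and blue symbols are separate, and the red triangle of replicate 2 is often the one nearest to the blue.

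The promoters of the risen genes were searched for the AP-1 site TGANTCA, which reads the same on both strands and is bound by FOS and JUN proteins. In windows of 250 bases before to 50 bases after the gene start (RefSeq, GRCm38.p6), 8.32% of the 17724 measured genes with such a window held it, against 10.9% of 477 risen and 7.99% of 463 fallen genes. Among genes changed by at least 1 it was in 21 of 129 risen genes (16.3%) and in 7 of 130 fallen genes (5.38%). AP-1 is 1 of 5 motifs searched and was picked after the shares were seen. The cAMP element TGACGTCA was in 3.88% of those risen genes and 2.61% of all, the E-box CACGTG in 12.4% and 9.21%, and the TATA box TATAAA in 18.6% and 14%. The heat shock element (inverted GAA repeats) was in 0 of the 129 and in 0.643% of all. Over all 477 risen genes the E-box was in 14.9%, a larger excess than that of AP-1. Among those 477 the TATA box was in 11.1%, the cAMP element in 2.94% and the heat shock element in 0.839%. All were searched on both strands. The AP-1 and cAMP motifs cannot share letters, whereas AP-1 and the E-box can share CA. The windows of 4 risen genes of different roles are shown, 5′ to 3′ on the gene's strand, with the AP-1 letters in capitals.
Sprr1a, stress protein, chr3:92485832-92486131, strand minus: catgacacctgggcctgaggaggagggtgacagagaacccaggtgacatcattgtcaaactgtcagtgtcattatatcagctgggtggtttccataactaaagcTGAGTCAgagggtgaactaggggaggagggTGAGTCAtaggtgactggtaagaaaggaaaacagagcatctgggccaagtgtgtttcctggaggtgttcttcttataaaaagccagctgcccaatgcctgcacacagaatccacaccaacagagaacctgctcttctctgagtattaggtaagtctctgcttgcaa
Xirp2, cytoskeletal protein, chr2:67445752-67446051, strand plus: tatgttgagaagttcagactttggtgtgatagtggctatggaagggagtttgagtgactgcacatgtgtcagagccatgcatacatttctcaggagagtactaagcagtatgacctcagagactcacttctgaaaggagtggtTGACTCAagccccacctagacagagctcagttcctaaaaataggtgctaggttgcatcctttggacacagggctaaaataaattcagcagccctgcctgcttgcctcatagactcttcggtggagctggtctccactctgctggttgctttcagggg
Plaur, urokinase receptor, chr7:24462233-24462532, strand plus: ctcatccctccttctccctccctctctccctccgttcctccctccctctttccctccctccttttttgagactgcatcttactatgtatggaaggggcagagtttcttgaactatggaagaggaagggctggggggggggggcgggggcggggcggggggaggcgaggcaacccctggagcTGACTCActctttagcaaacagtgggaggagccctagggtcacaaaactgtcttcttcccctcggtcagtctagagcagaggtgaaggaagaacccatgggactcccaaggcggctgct
Mt2, metallothionein, chr8:94172368-94172667, strand plus: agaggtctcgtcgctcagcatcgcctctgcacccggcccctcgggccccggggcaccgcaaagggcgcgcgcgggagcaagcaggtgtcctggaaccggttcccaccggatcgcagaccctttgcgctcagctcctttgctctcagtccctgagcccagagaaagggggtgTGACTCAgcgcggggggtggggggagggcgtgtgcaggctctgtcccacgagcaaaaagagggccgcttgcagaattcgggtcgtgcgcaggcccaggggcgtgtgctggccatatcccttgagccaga
Sprr1a holds 2 such matches and the other 3 genes 1 each. A match is a string of letters and says nothing of binding.

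Stress genes of heart muscle were among those that rose most often. Of 16 measured members of the list of stress and fetal genes, 8 rose (8 of 16 against 2.58% of all features), 0 fell, and the median difference was 1.065 (all features, 0.005). Ankrd1, a mechanosensitive partner of titin, had 13.93, 13.68 and 13.68 in the DKO I/R arrays, against 13.13, 13.02 and 13.10 in the DKO sham arrays (0.68, adjusted p = 0.0022). Fhl1, a LIM protein of the sarcomere, rose by 1.73 (adjusted p = 0.0043), and Xirp2, which binds actin at the intercalated disc, by 2.16 (adjusted p = 0.0069). These 3 and Sprr1a kept their calls without the array labelled replicate 1. Nppb, which encodes B-type natriuretic peptide, had 13.10, 12.34 and 12.84 against 11.24, 11.55 and 11.61 (1.29, adjusted p = 0.025; 1.12 and adjusted p = 0.11 without that array).

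Other fetal genes of the list did not pass. Nppa, the atrial natriuretic peptide gene, had 13.75, 13.93 and 13.93 in DKO I/R against 13.75, 13.68 and 13.68 in DKO sham arrays, and 13.93 is the highest value of the whole table, so there was little room above. FFFF sham arrays stood lower, at a mean of 12.82, and Nppa rose by 1.05 in FFFF hearts (limma, adjusted p = 6.5e-04). The difference of the responses, -0.88, was not called (adjusted p = 0.51). Acta1, skeletal actin, had 11.97, 12.20 and 12.23 against 11.08, 11.66 and 11.24 (0.81, adjusted p = 0.079). Myh7, the slow myosin heavy chain of the fetal heart, had 8.24, 12.30 and 9.58 against 10.06, 9.39 and 10.80. In Myh7 the array labelled replicate 1 was below every sham array and replicate 2 above every one.

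Of 25 genes of the extracellular matrix and of myofibroblasts, 11 passed upward (2.58% of all features did) and 0 downward, with a median of 1.27. In 18 of them the I/R arrays were all above the sham arrays (11.4% of all features). Lox, which cross-links collagen, had 9.22, 9.09 and 9.46 in the DKO I/R arrays, against 5.56, 5.85 and 6.01 in the DKO sham arrays (3.45, adjusted p = 0.0010). Replicate 2 rose as far as the other 2 there. Tnc, the wound matrix protein tenascin C, had 9.80, 6.55 and 10.21 against 4.80, 4.37 and 4.73 (4.22, adjusted p = 0.0098), so replicate 2 lay between the sham arrays and the other I/R arrays. Thbs1, thrombospondin 1, rose by 3.46 (adjusted p = 0.0078), Vcan, the proteoglycan versican, by 1.98 (adjusted p = 0.0045), Spp1, osteopontin, by 4.16 (adjusted p = 0.047), and Ccn2, connective tissue growth factor, by 1.72 (adjusted p = 0.021). Without the array labelled replicate 1, 6 members were called (0.437% of all features rose then): Timp1, Lox, Vcan, Thbs1, Col8a1 and Loxl2.

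The fibrillar collagens followed another order of arrays. Col1a1 had 9.21, 10.62 and 10.49 in the DKO I/R arrays, against 8.99, 9.34 and 9.23 in the DKO sham arrays (0.92, adjusted p = 0.21). Col3a1 had 9.0, 10.48 and 10.46 against 8.98, 9.58 and 9.43 (0.65, adjusted p = 0.41), and Postn, the fibroblast protein periostin, 9.87, 11.26 and 11.19 against 9.06, 9.14 and 9.97 (1.38, adjusted p = 0.071). In all 3 the array labelled replicate 1 overlapped the sham arrays and the other 2 I/R arrays lay above them. Acta2, smooth muscle actin, had 12.08, 10.55 and 11.23 against 11.56, 11.97 and 12.02, and did not pass either (adjusted p = 0.57).

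Of 24 protease and plasminogen activation genes, 9 rose (2.58% of all features did) and 0 fell, with a median of 0.441. Plaur, the urokinase receptor whose promoter is printed above, had 8.49, 5.61 and 7.16 in the DKO I/R arrays, against 4.84, 4.81 and 4.93 in the DKO sham arrays (2.23, adjusted p = 0.033). Serpina3n, an acute-phase protease inhibitor, had 11.71, 12.58 and 11.30 against 8.41, 8.30 and 9.56 (3.11, adjusted p = 0.0076), and here replicate 2 was the highest. Adamts1, a protease that cuts versican, rose by 2.84 (adjusted p = 0.011). Serpina3n kept its call without the array labelled replicate 1 (adjusted p = 0.031), and Plaur and Adamts1 did not (adjusted p = 0.13 and 0.054). Of 18 TGF-β and activin genes, 2 rose: Fstl3, a secreted binder of activin, by 2.45 (adjusted p = 0.0019), and Tgfb2 by 1.82 (adjusted p = 0.026), of which Fstl3 kept its call without that array (adjusted p = 0.011).

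Immediate early genes are regulators that respond within hours of a stimulus. Of 24 such genes, 7 rose (2.58% of all features did) and 0 fell, with a median of 0.883, and without the array labelled replicate 1 the count was 0 (0.437% of all features rose then). Myc had 9.17, 6.59 and 8.50 in the DKO I/R arrays, against 5.32, 5.80 and 5.79 in the DKO sham arrays (2.45, adjusted p = 0.013). Junb, a JUN family subunit of AP-1, rose by 0.97 (adjusted p = 0.024) and Cebpb, a bZIP factor of the acute phase, by 1.03 (adjusted p = 0.026). Fos did not pass, with 7.22, 6.20 and 6.70 against 4.97, 6.26 and 5.21 (1.23, adjusted p = 0.076), and sham replicate 2 lay within the I/R range. Jun was at 0.03 (adjusted p = 0.93).

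Of 18 genes of metal and oxidant defense 5 rose (2.58% of all features did) and 0 fell. Mt2, the metallothionein shown above, had 11.44, 10.96 and 11.34 in the DKO I/R arrays, against 9.10, 8.53 and 9.88 in the DKO sham arrays (2.08, adjusted p = 0.0013), and Mt1 rose by 0.67 (adjusted p = 0.0045). Both kept their calls without the array labelled replicate 1. Hmox1, the heme-degrading enzyme heme oxygenase 1, had 10.16, 8.26 and 9.15 against 6.21, 6.24 and 6.78 (2.78, adjusted p = 0.020; 0.093 without that array).

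Protein production and folding genes rose in part, beside a share of 2.58% risen over all features. Of 22 unfolded protein response and endoplasmic reticulum chaperone genes, 9 rose (median 0.719), among them Creld2, a stress-induced chaperone-associated protein, at 1.42 (adjusted p = 0.019), Dnajb11, a co-chaperone of BiP, at 0.84 (adjusted p = 0.023), and Manf, a secreted protein of the stressed reticulum, at 1.38 (adjusted p = 0.029). Hspa5, which encodes BiP itself, had 12.01, 11.21 and 12.17 in DKO I/R against 11.06, 11.10 and 10.90 in DKO sham arrays (0.77, adjusted p = 0.045). Its replicate 2 was barely above the sham arrays. Of these 9, Dnajb11 alone kept its call without the array labelled replicate 1 (adjusted p = 0.043). All 26 ribosome biogenesis genes had a positive difference (median 0.788), and 5 passed: Bop1, Ddx21, Nop58, Wdr12 and Heatr1. Nop58, a core protein of small nucleolar particles, had 10.17, 7.93 and 9.56 against 7.70, 7.57 and 7.59 (1.60, adjusted p = 0.031). The list mean was 8.41, 7.06 and 8.06 in the I/R arrays and 6.98 to 7.02 in the sham arrays, so replicate 2 stayed next to the sham arrays. Without replicate 2, 22 of the 26 passed (7.03% of all features did), and without the array labelled replicate 1, 0 did. Of 22 proteasome genes 4 rose, with the smallest p for Psmc4, an ATPase of the regulatory particle, at 0.54 (adjusted p = 0.0049), which also kept its call without that array.

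Chemokine and cytokine genes rose for a few members, beside a share of 2.58% risen over all features. Ccl2, the ligand that draws monocytes through CCR2, had 9.61, 6.12 and 9.57 in the DKO I/R arrays, against 4.85, 4.90 and 4.94 in the DKO sham arrays (3.54, adjusted p = 0.027). Replicates 1 and 3 were alike and replicate 2 was nearer to the sham arrays. Ccl7 rose by 2.96 (adjusted p = 0.025) and Ccl9 by 2.46 (adjusted p = 0.027), which made 3 of 8 monocyte-attracting chemokines. Of 6 neutrophil-attracting chemokines, Cxcl5 rose, with 8.05, 5.54 and 7.89 against 4.63, 4.29 and 4.26 (2.77, adjusted p = 0.016). None of these 4 passed without the array labelled replicate 1 (adjusted p = 0.08 to 0.13). Of 28 inflammatory cytokine and NF-κB target genes, 5 rose, among them Osmr, the oncostatin M receptor, at 1.93 (adjusted p = 0.0046; 0.025 without that array), Il4ra at 1.96 (adjusted p = 0.023) and Socs3, a feedback inhibitor of cytokine receptors, at 1.13 (adjusted p = 0.040). Il4ra and Socs3 lost the call without that array (adjusted p = 0.10 and 0.17). Il1b had 7.55, 4.04 and 6.95 against 4.0, 4.42 and 3.95, and did not pass (2.06, adjusted p = 0.10). In Il1b replicate 2 lay among the sham arrays.

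Leukocyte markers differed more between the I/R arrays than most other lists. Fewer cells of a type and less RNA per cell cannot be told apart in such bulk tissue. The 15 pan-leukocyte genes all had positive differences (median 1.188) and 13 had I/R arrays all above sham (11.4% of all features did), but 0 passed; their mean was 8.61, 7.17 and 7.86 in the DKO I/R arrays, against 6.51 to 6.59 in the DKO sham arrays. Of 17 monocyte and macrophage genes 3 rose (2.58% of all features did). They were Itgam, the integrin CD11b, at 2.73 (adjusted p = 0.029), Cd68, a lysosomal protein of phagocytes, at 1.89 (adjusted p = 0.034), and Ms4a4a at 1.73 (adjusted p = 0.043). None of the 3 passed without the array labelled replicate 1. The 14 resident macrophage genes held 0 calls, with a median of 0.215.

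Of 20 neutrophil genes 1 rose, Lcn2 (2.58% of all features rose), and nothing is read from this count. The list mean was 6.59, 4.55 and 5.31 in the DKO I/R arrays, against 4.25 to 4.30 in the DKO sham arrays. S100a8, a subunit of the neutrophil protein calprotectin, had 8.91, 3.96 and 4.42 against 3.84, 3.94 and 3.88. S100a9, the other subunit, had 8.83, 4.14 and 5.45 against 4.14, 4.06 and 4.17. The array labelled replicate 1 alone was high in both, replicate 2 was at the sham level, and replicate 3 lay between. Il1r2, a decoy receptor for interleukin 1 on neutrophils, had 9.07, 4.67 and 5.94 against 4.33, 4.12 and 4.58, and Cxcr2, the neutrophil chemokine receptor, 8.36, 4.61 and 6.18 against 4.25, 4.42 and 4.40 (2.03, adjusted p = 0.083). S100a8, S100a9 and Il1r2 are among the 8 genes with the largest spread over the 3 DKO I/R arrays, with Esr1, Myh7, Ccl2, Chil3, a macrophage and neutrophil lectin, and Gm14548. Over all features, 277 had an SD over 1 in the DKO I/R arrays, against 20 in the DKO sham arrays, and 93 in the FFFF I/R arrays against 16 in the FFFF sham arrays. Chil3 had 9.29, 4.05 and 7.31 against 4.35, 3.99 and 3.85, in the same order of arrays.

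**Figure D4:**
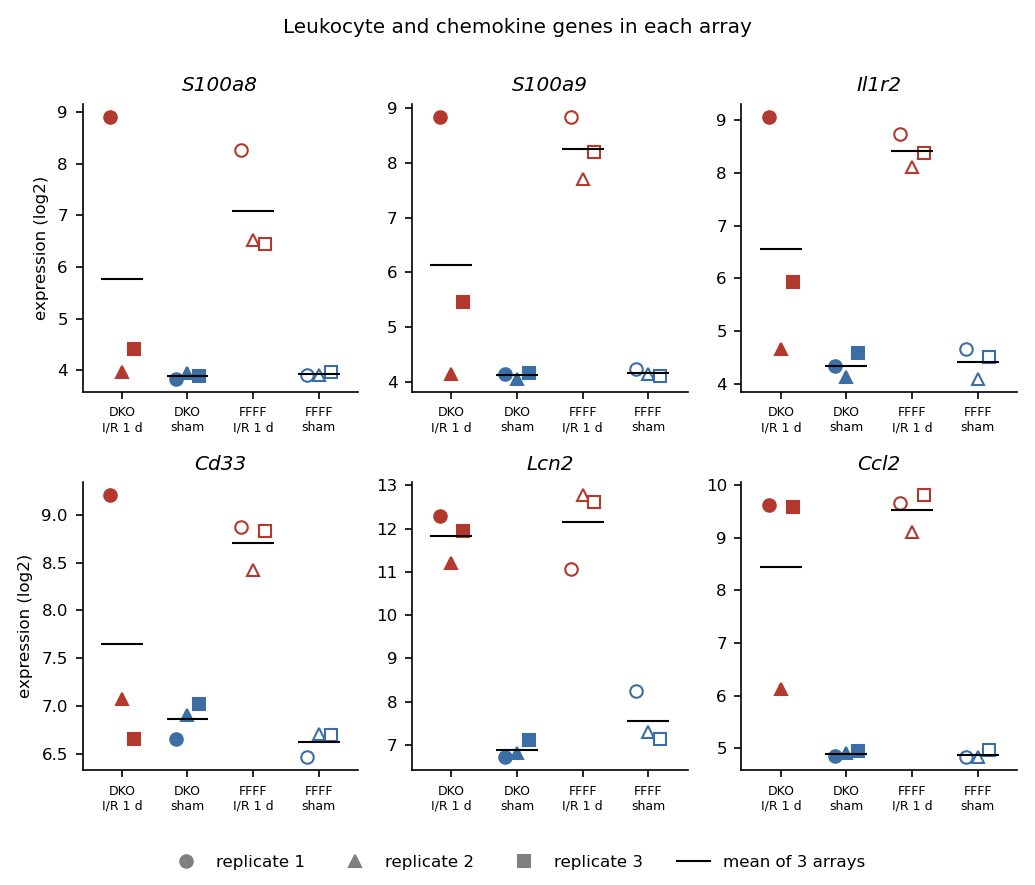
Log2 expression of 6 genes in each array of 4 groups (filled, DKO; open, FFFF; red, I/R 1 day; blue, sham; lines are means of 3 arrays). S100a8, S100a9, Il1r2 and Cd33 are high in 1 of the 3 DKO I/R arrays, Ccl2 in 2, and Lcn2 in all 3.

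The largest fall among called genes was that of a gene of the cardiac action potential. Kcnip2, the β subunit of the transient outward potassium current, had 5.90, 7.87 and 5.85 in the DKO I/R arrays, against 10.21, 10.09 and 9.90 in the DKO sham arrays (-3.53, adjusted p = 0.027). Kcnd2, a pore subunit of the same current, had 6.30, 8.35 and 6.68 against 9.54, 9.68 and 9.36 (-2.42, adjusted p = 0.030). Both fell in every array and fell least in replicate 2. Of 20 ion channel and connexin genes 4 fell (2.54% of all features did) and 0 rose, with a median of -0.682; the other 2 were the pacemaker channels Hcn2, at -1.21 (adjusted p = 0.025), and Hcn4, at -0.61 (adjusted p = 0.010). Hcn4 alone kept its call without the array labelled replicate 1 (adjusted p = 0.049), at a low level of 3.91, 3.91 and 4.06 against 4.65, 4.65 and 4.41. The gap junction gene Gja1 was at -0.32 (adjusted p = 0.44).

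The other large falls were spread over several roles. Ogdhl, a homolog of a Krebs cycle dehydrogenase, had 4.36, 4.46 and 4.37 in DKO I/R against 7.03, 7.39 and 6.68 in DKO sham arrays (-2.64, adjusted p = 0.047), where the 3 I/R values lie below the median of the table. Ces1d, a carboxylesterase, fell by 3.23 (adjusted p = 0.047), Pla2g5, a secreted phospholipase A2, by 2.35 (adjusted p = 0.013), and Lrtm1, a leucine-rich repeat membrane protein, by 3.13 (adjusted p = 0.040). Inmt, a methyltransferase, had 4.45, 6.12 and 4.78 against 8.05, 6.50 and 9.42 (-2.87, adjusted p = 0.027), with sham arrays far apart. Also among the 12 largest were Lsmem1, Asb14, Islr and Smco1, at -2.54, -2.54, -2.37 and -2.36, and A1cf. Of these 12, A1cf alone kept its call without the array labelled replicate 1.

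A microRNA gene of heart muscle fell. Mir208a lies in an intron of Myh6, the gene of the adult fast myosin heavy chain, and its product controls other myosin genes. The feature had 4.50, 4.52 and 4.47 in the DKO I/R arrays, against 6.37, 6.92 and 6.48 in the DKO sham arrays (-2.09, standard error 0.31, adjusted p = 0.0044), and it passed with adjusted p = 0.023 when the array labelled replicate 1 was left out. All 3 I/R values lie below 4.85, the median of the table, so their likeness does not show falls of equal size. The array feature stands for the microRNA gene, and mature microRNA was not measured. Its mature sequences (RefSeq, GRCm38.p6, chromosome 14, minus strand) are shown because the call held whichever array was left out, with the seed, bases 2 to 8, in capitals.
mmu-miR-208a-3p, chr14:54949072-54949093: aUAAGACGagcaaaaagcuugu
mmu-miR-208a-5p, chr14:54949107-54949128: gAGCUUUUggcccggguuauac
The host gene Myh6 had 12.68, 12.87 and 12.73 in DKO I/R against 13.33, 13.29 and 13.33 in DKO sham arrays (-0.55, adjusted p = 0.12). Mir208b, the related microRNA gene in Myh7, was at -0.20 (adjusted p = 0.13), near the floor of the table in all arrays. Of 539 microRNA genes on the array, 5 rose and 6 fell, fewer in share than over all features (5.11% called).

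In the 3 lists of energy metabolism 1 gene passed, beside a share of 2.54% fallen over all features. All 36 oxidative phosphorylation genes had a negative difference (median -0.397), 28 had I/R arrays all below sham (12.3% of all features did), and 0 passed. The list mean was 10.41, 10.59 and 10.34 in the DKO I/R arrays, against 10.81 to 10.86 in the DKO sham arrays. Of 23 fatty acid uptake and oxidation genes 22 were negative and 0 passed; the smallest p was that of Echs1, a hydratase of β-oxidation, with 9.89, 10.02 and 9.74 against 10.67, 10.70 and 10.62 (-0.78, adjusted p = 0.091). Breakdown of branched-chain amino acids was lowest of the 3, with 20 of 20 negative, a median of -0.774 and 1 fall, Oxct1, the ketone body transferase, at -0.70 (adjusted p = 0.032). Bckdha, a subunit of the rate-setting dehydrogenase of that pathway, had 8.47, 9.01 and 8.29 against 9.79, 9.88 and 9.63 (-1.18, adjusted p = 0.072). In FFFF hearts 17 of these 20 genes fell (5.79% of all features did), and 0 of the 20 were called for the difference of the responses. Of 22 cardiac transcription factors and coactivators 1 fell (2.54% of all features did), the orphan receptor Esrrb, at -1.35 (adjusted p = 0.011). Ppara, the lipid-sensing receptor of oxidation genes, was at -1.45 (adjusted p = 0.071). Oxct1 and Esrrb lost the call without the array labelled replicate 1 (adjusted p = 0.14 and 0.057).

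Few sarcomere genes were called, though most were lower after I/R. Of 20 cardiomyocyte structural genes 1 fell (2.54% of all features did). It was Actc1, cardiac actin, by 0.26 (adjusted p = 0.021), at the top of the scale in all arrays. Its adjusted p was 0.08 without the array labelled replicate 1. Mybpc3 had 11.06, 12.42 and 11.43 in DKO I/R against 12.58, 12.67 and 12.52 in DKO sham arrays (-0.96, adjusted p = 0.069). Of the 20 genes 17 were negative, and 7 had I/R arrays all below sham (12.3% of all features did). The list mean was 11.95, 12.32 and 11.93 against 12.34 to 12.39, so replicate 2 lay next to the sham arrays. Of 14 calcium handling genes 12 were negative (median -0.414), 5 had I/R arrays all below sham, and 0 passed. Ryr2, the calcium release channel, was at -0.61 (adjusted p = 0.16), and Atp2a2, the calcium pump SERCA2, at -0.45 (adjusted p = 0.21). Camk2d itself was at -0.54 (adjusted p = 0.35) and at -1.07 (adjusted p = 0.011) without the array labelled replicate 1. Camk2g was at 0.75 (adjusted p = 0.11), and at 0.42 (adjusted p = 0.40) without that array.

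Some vessel genes fell, in replicate 2 as in the other arrays. Of 17 endothelial genes 3 fell (2.54% of all features did). Kdr, VEGF receptor 2, had 9.23, 8.82 and 9.0 in the DKO I/R arrays, against 10.39, 10.71 and 10.06 in the DKO sham arrays (-1.37, adjusted p = 0.0077; 0.023 without the array labelled replicate 1). Aplnr, the apelin receptor, fell by 2.06 (adjusted p = 0.014) and Tek, the angiopoietin receptor TIE2, by 0.81 (adjusted p = 0.034). The junction genes Pecam1 and Cdh5 were at -0.02 and -0.22 (adjusted p = 0.96 and 0.46). Of 13 smooth muscle and pericyte genes 3 fell (2.54% of all features did) and 1 rose, Cnn1 (2.58% of all features did). The falls were Kcnj8 by 1.11, Myh11 by 0.89 and Pdgfrb by 0.50 (adjusted p = 0.028, 0.039 and 0.041). Of 16 resting fibroblast genes 1 fell, Fbln1, the matrix protein fibulin 1, with 7.47, 9.44 and 7.65 against 10.09, 10.42 and 10.69 (-2.21, adjusted p = 0.010). That list's mean was 8.14, 9.68 and 8.70 against 9.52 to 9.89, so replicate 2 lay in the sham range. Of these vessel and fibroblast genes, Kdr alone kept its call without the array labelled replicate 1.

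Clock genes showed a sham array that stood apart. Nr1d1, the clock repressor REV-ERBα, fell, with 9.80, 10.54 and 9.59 in DKO I/R against 11.22, 11.06 and 11.38 in DKO sham arrays (-1.25, adjusted p = 0.046). It was the only call among 18 clock genes (2.54% of all features fell) and was lost without the array labelled replicate 1 (adjusted p = 0.16). Arntl, the clock activator BMAL1, had 6.49, 5.62 and 5.57 against 5.07, 8.10 and 5.19. Per2, a clock repressor that runs against it, had 6.74, 7.18 and 7.19 against 7.01, 5.12 and 7.12. Sham replicate 2 was thus high in Arntl and low in Per2 beside the other 5 arrays, and the labels give no time of day.

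In the lists that follow 0 to 2 members were called, beside a background of 2.58% risen and 2.54% fallen features, and nothing is read from them as lists. Of 20 interferon-stimulated genes 1 fell, Rsad2, the antiviral protein viperin, by 1.38 (adjusted p = 0.045), and 17 were negative. The 20 lymphocyte genes held 0 calls and a median of -0.019, and their mean lay between 4.35 and 4.45 in all 6 arrays. Of 25 glycolysis and hypoxia genes Pfkp, a phosphofructokinase, rose by 0.81 (adjusted p = 0.021) and Pgam1, a phosphoglycerate mutase, fell by 1.07 (adjusted p = 0.046). Of 27 cell cycle genes 2 rose, the inhibitor Cdkn1a by 1.78 and the cyclin Ccnd1 by 0.85 (adjusted p = 0.041 and 0.045). Of 23 genes of the BCL2 family and cell death 2 rose, the survival gene Bcl2l1 by 1.5 and the death receptor Tnfrsf1a by 0.79 (adjusted p = 0.011 and 0.015). The heat shock list of 15 held 1 rise, the small chaperone Cryab, by 0.72 (adjusted p = 0.018), and the 18 Toll-like receptor and inflammasome genes 1, Tlr4, by 0.65 (adjusted p = 0.048). None of these 8 kept its call without the array labelled replicate 1. Mesothelial, atrial, adipocyte and erythroid lists held 0 calls as well, and 1 of 11 fast skeletal muscle genes rose, Tnnc2, by 0.43 (adjusted p = 0.039). Rsad2 and Tnnc2 lost the call without that array (adjusted p = 0.11 and 0.13).

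**Figure D5:**
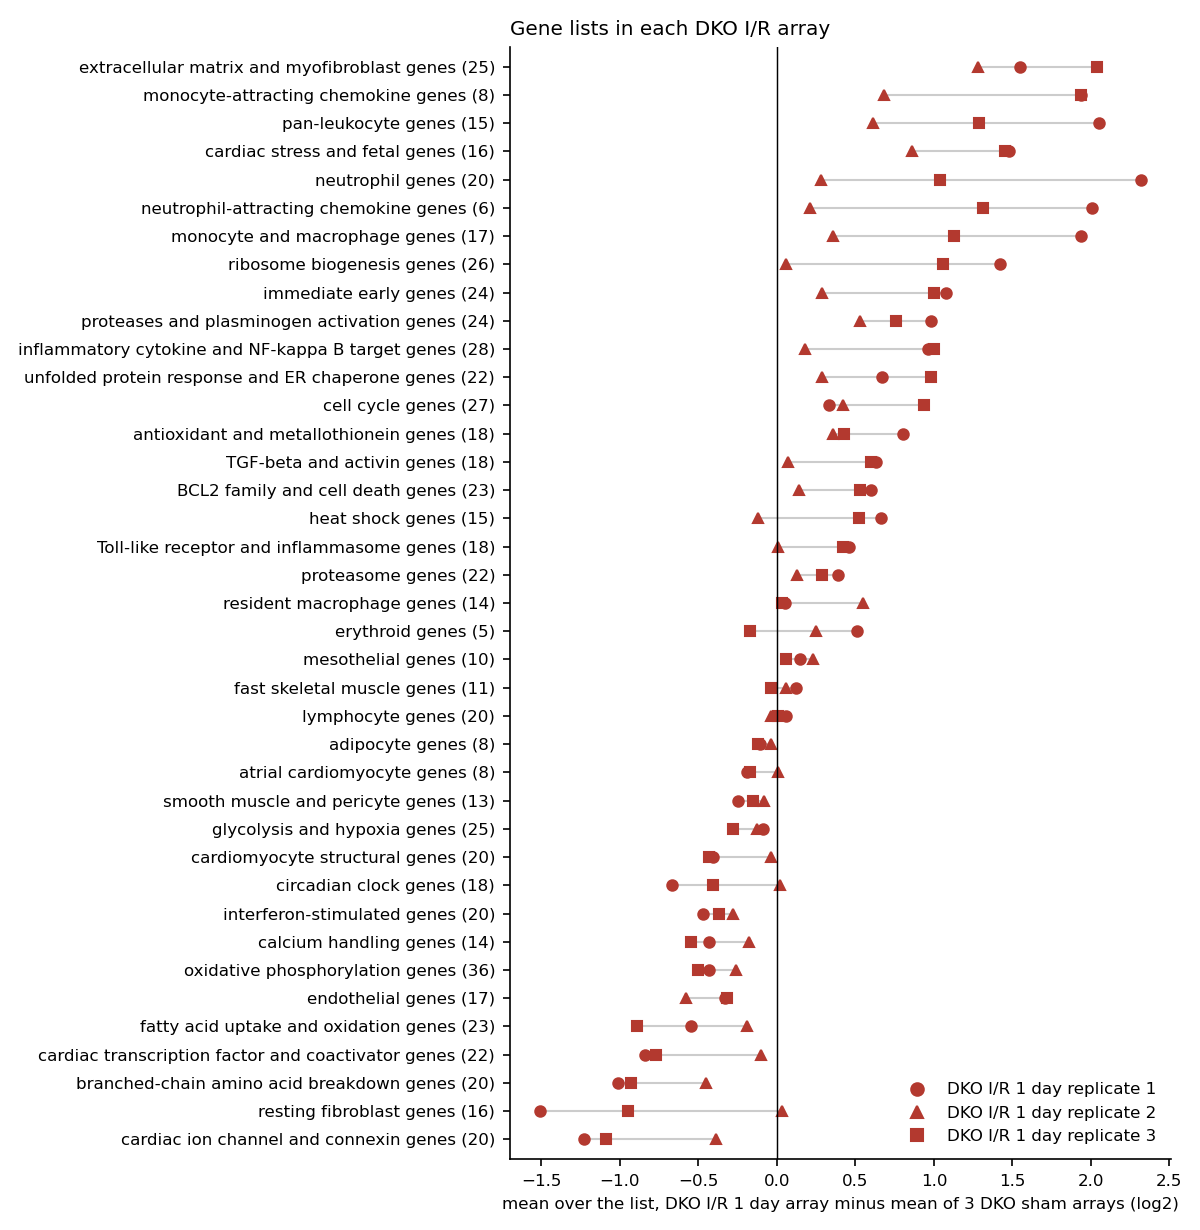
Mean change of each gene list in the 3 DKO I/R arrays from the mean of the 3 DKO sham arrays (log2), with the number of measured genes in brackets; symbols are replicates. Extracellular matrix genes are at 1.28 or more in all 3 arrays, whereas neutrophil genes span 0.28 to 2.32 and ribosome biogenesis genes 0.06 to 1.42.

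A last comparison asked whether the 1-day response of DKO hearts differed from that of FFFF hearts. Across all features the 2 responses, which share no array, correlated with r = 0.856, as a description over genes, and the single DKO I/R arrays with r = 0.847, 0.416 and 0.857. FFFF hearts had 1452 risen (5.93%) and 1418 fallen genes (5.79%). The difference of the responses was called for 1 gene (0.00409% of features), A1cf, at -2.65 (standard error 0.33, adjusted p = 0.038); 1125 features had an unadjusted p under 0.05. This call comes from the DKO sham arrays described above, since A1cf was near 4 in all others of the 4 groups. Leaving out any 1 of the other 11 arrays raised the adjusted p to between 0.06 and 0.19, with differences of -2.52 to -2.73, whereas leaving out the array labelled replicate 1 kept it at 0.038. The next smallest p-values were those of Dpf1, P2ry4, Gm21057 and Mrgbp, at 0.63, 0.42, -0.67 and 0.78 (adjusted p = 0.23, 0.23, 0.23 and 0.37).

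Without the array labelled replicate 1, the difference of the responses was called for 5 genes (0.0204%), all with the lower response in DKO. They were A1cf, S100a9, Il1r2, Cd33, a myeloid surface lectin, and Akap12, a kinase anchoring protein. A lower response is not always a lower level after I/R, since A1cf was high in the DKO sham arrays alone. Akap12 had 8.59, 8.57 and 8.75 in the DKO sham arrays, against 8.09, 8.24 and 8.28 in the FFFF sham arrays. After I/R it had 8.03 and 7.99 in DKO replicates 2 and 3, against 8.85, 8.71 and 8.56 in FFFF. S100a9, which had 4.14 and 5.45 in DKO I/R replicates 2 and 3, had 8.84, 7.71 and 8.19 in the FFFF I/R arrays. Cd33 had 9.20, 7.08 and 6.66 in the DKO I/R arrays, against 8.87, 8.42 and 8.83 in the FFFF I/R arrays. In both, the array labelled replicate 1 was within or above the FFFF range and the other 2 below it. Cd33 and Akap12 are named because of this count, after their values were seen.

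The 2 responses start from unlike sham levels in some lists. Stress and fetal genes averaged 9.95 to 10.08 in DKO sham arrays, against 9.43 to 9.63 in FFFF sham arrays, extracellular matrix genes 7.31 to 7.58 against 6.79 to 6.84, and resting fibroblast genes 9.52 to 9.89 against 8.87 to 9.0. DKO sham hearts were thus higher in these 3 lists, with no overlap. Further lists were higher in the same way, inflammatory cytokine and cell cycle genes among them. Pan-leukocyte genes averaged 6.51 to 6.59 in DKO sham arrays, against 6.27 to 6.31 in FFFF sham arrays. Monocyte and macrophage genes averaged 5.56 to 5.74 against 5.33 to 5.5. Other lists were lower in DKO sham arrays with no overlap. Among them, branched-chain amino acid breakdown genes averaged 9.74 to 9.77 against 9.92 to 10.06 in FFFF sham arrays. Fatty acid genes averaged 10.72 to 10.87 against 10.92 to 11.05, and ribosome biogenesis genes 6.98 to 7.02 against 7.08 to 7.16. Nppb rose by 1.29 in DKO hearts and by 2.46 in FFFF hearts, and the difference of the responses, -1.17, did not pass (adjusted p = 1).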

How the data were processed

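Left ventricular RNA was hybridised to mouse gene 2.0 ST arrays. The authors deposited log2 expression values made with RMA, which corrects background, quantile-normalises and summarises probes, on a custom probe definition (version 18) with 1 feature per Entrez gene. No detection calls were used. Precision is limited by there being 3 arrays a group. Quantile normalisation fixes each array's distribution, so all differences are relative to the other genes of that array. The analysis of variance in the study's methods was run as an alternative.

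The 24479 features of all 18 arrays were fitted as 6 groups with limma 3.58.1 in R 4.3.3 (12 residual degrees of freedom), with Benjamini-Hochberg adjustment over all features and a threshold of 0.05. The fitting code was tested on simulated data. Symbols came from the platform annotation for 23281 features and from the reference for 556, and 642 had none. Named were the targeted genes, the 12 largest rises and 12 largest falls among called genes with no overlap between groups, up to 3 genes of smallest p in each of 39 lists, the 5 of smallest p in the difference of responses, the 8 with the largest spread over the I/R arrays, and further list members picked after their values were seen. Some of these genes are not reported here. Members and lists were chosen with earlier results of these data known.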

Additional observations from a re-analysis of the deposited data

Results flagged for a closer look

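A1cf was singled out because its 1-day response differed between DKO and FFFF hearts by a test of the difference itself, at -2.65 (limma, adjusted p = 0.038). The difference was made by the 3 DKO sham arrays, which had 6.56 to 6.99, while the DKO I/R and FFFF arrays had 3.88 to 4.21. The part of the DKO mice used for sham surgery in it was not tested.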

How the results depend on the processing

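The 1252 calls between DKO I/R and DKO sham arrays became 142 at an adjusted p below 0.01, 371 with a difference of at least 1, 112 with the compared groups alone, 610 by gene-wise analysis of variance after adjustment, 2150 by the study's rule of an unadjusted p below 0.01, and 2727 with array weights. Leaving out 1 array gave 206 to 3349. A fit of the sham and 1-day groups gave 1627, a variance trend 1146, a filter on low values 1666, further quantile normalization 1251 and median centring 1252. The 1 call for the difference of the responses became 0 at an adjusted p below 0.01, 0 by gene-wise analysis of variance after adjustment and 260 by its unadjusted rule, and leaving out 1 array gave 0 to 5. Without FFFF sham replicate 2 the only call was Nppa, with the lower response in DKO (adjusted p = 0.016). Deviations of same-numbered I/R and sham arrays from their group means had correlations of -0.0556, -0.00453 and 0.0328 across genes. With 3 arrays a group, these cannot decide whether equal numbers stand for pairs or a shared batch. A fit with replicate block called 1170 genes for the main comparison and 0 for the difference. Of the 93 called genes described, 67 lost the call without the array labelled DKO I/R replicate 1, 5 without replicate 2, 55 without replicate 3, and 62, 61 and 37 without DKO sham replicates 1, 2 and 3, 76 with the compared groups alone and 39 by gene-wise analysis of variance, and 0 changed sign under any of these. Genes that had not passed did change sign: with 1 array left out, Arntl ran from -0.75 to 0.77 and Per2 from -0.03 to 0.97 (0.77 and -0.03 without DKO sham replicate 2), Jun from -0.05 to 0.16, and Pecam1 from -0.14 to 0.20, with 0.09 under array weights. The cause of these changes was not tested. Genes near the highest value of the table, 13.93, such as Nppa and Actc1, have their differences compressed.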
